A study of Homo sapiens with 9 samples.

Results

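The response of MDA-MB-231 cells to 20 mM 2-DG was measured by RNA-seq in 3 libraries of treated cells and 3 libraries of control cells. These 6 of the 9 libraries of the series were chosen by their treatment labels. The other 3 libraries, from cells given 10 mM 2-DG, entered the filter and the fit, whose estimate of spread all 9 libraries share. Their values are given only where that dose is named. MDA-MB-231 is an established human TNBC cell line, labelled here as wild type, and all 9 libraries came from cells kept in DMEM with serum and harvested at 24 h. The control cells received phosphate-buffered saline, which is 0 mM 2-DG. The labels number the libraries 1 to 3 in each condition but do not say that they came from separate cultures, so p-values measure only the spread between these samples, which may be technical. Of the 61552 genes listed, 16572 had enough reads to be tested.

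2-DG is an analogue of glucose that enters cells through the glucose carriers and is phosphorylated by hexokinase, after which glycolysis can use it only poorly. It also resembles mannose, a building block of the sugar chains (N-glycans) that are attached to proteins in the endoplasmic reticulum (ER). Proteins that fold badly in the ER activate the unfolded protein response (UPR), in which the sensors ATF6, IRE1 (encoded by ERN1) and PERK (EIF2AK3) raise the level of chaperones and, through the factors ATF4 and CHOP (DDIT3), of genes for amino acid supply. MDA-MB-231 cells are known for a mesenchymal state and for strong secretion of cytokines driven by NF-kB.

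The libraries held between 30974968 and 39780925 reads in these 6 samples, as recovered from the FPKM values (reads scaled to the length of the gene and to the size of the library), so that 1 read on a gene of 1 kb was worth between 0.0251 and 0.0323 FPKM. The 20 mM files carry up to 15 significant digits and the control and 10 mM files up to 10, so that export and treatment cannot be told apart. Replicates correlated at a Pearson r, across genes, of 0.994 to 0.995 in the control and 0.996 at 20 mM 2-DG. Of the mesenchymal markers, 10 of 10 were above the filter, with VIM at 285 FPKM in the control and 274 FPKM at 20 mM 2-DG (not called). Of these 10 markers, 4 were called lower and 1 higher, with a median log2 fold change of -0.20. Of 10 luminal and epithelial markers, ESR1, PGR and FOXA1 were below the filter, CDH1 was at 0.365 FPKM in the control, and 5 of the 7 tested were called lower. The summed level of these 7 tested genes was between 545 and 632 FPKM in the control libraries and between 399 and 422 FPKM in the 20 mM libraries. Of the immune and endothelial markers, 7 of 12, PTPRC, CD3E and CDH5 among them, were below the filter. The summed level of the 5 tested genes was between 5.52 and 6.43 FPKM in the control libraries and between 2.72 and 3.6 FPKM in the 20 mM libraries.

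At 20 mM 2-DG, 2544 genes were higher than in the control and 3582 genes were lower (limma's moderated test on log2(FPKM + 1), Benjamini-Hochberg adjusted p under 0.05), which is 15.4% and 21.6% of the genes tested. Such genes are called higher or lower here, and the counts of list members given below are to be read beside these shares. Most of these changes were small. The median log2 fold change of the genes called higher was 0.41 and that of the genes called lower was -0.44, and the median over all tested genes was -0.02. A log2 fold change over 1 in either direction with an unadjusted p under 0.05, the thresholds of the study for DEGs, left 160 higher genes (0.965%) and 324 lower genes (1.96%), and 483 of these 484 DEGs also passed the adjusted threshold. The study applied these thresholds to DESeq2 results, whereas here they were applied to limma's fold changes of log2(FPKM + 1). The counts depended on the handling of low values, with 621 higher and 866 lower DEGs for a pseudocount of 0.1 and 927 and 1193 for limma-voom on recovered reads. The 3 treated and the 3 control libraries did not overlap for 8827 genes, or 53.3%, so that a lack of overlap by itself was common. Fold changes are differences of the mean of log2(FPKM + 1) throughout, and the pseudocount of 1 makes those of genes at low FPKM smaller than their ratios of FPKM.

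**Figure D1:**
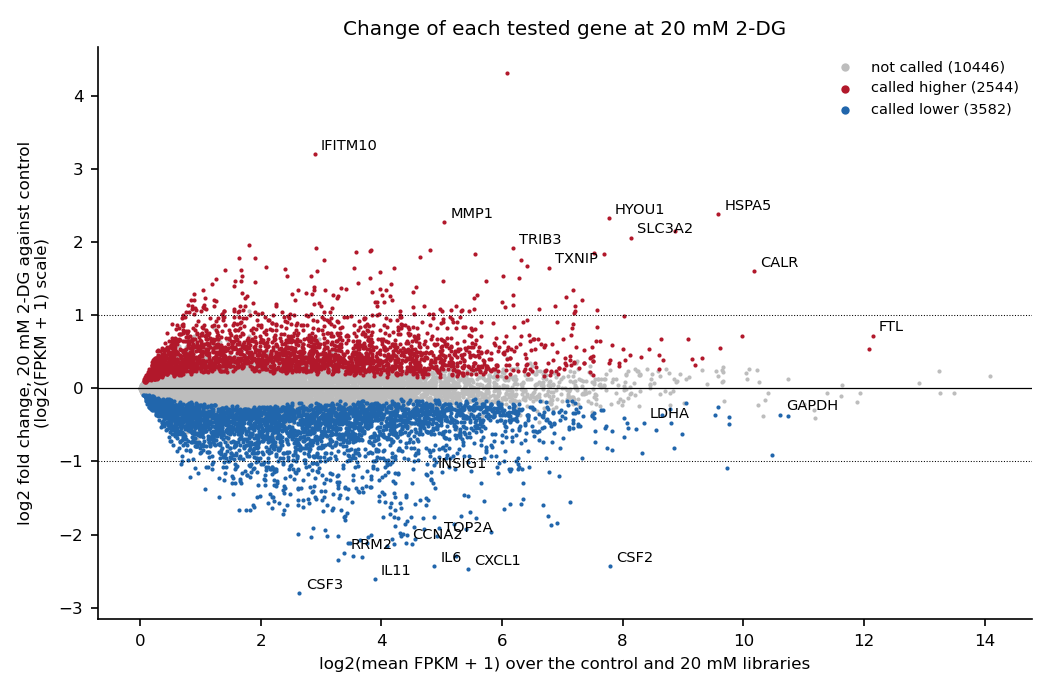
Each point is 1 of the 16572 tested genes, with log2 of its mean FPKM plus 1 over the 6 libraries on the x axis and its log2 fold change at 20 mM 2-DG against the control on the y axis. Red points are the 2544 genes called higher, blue points the 3582 genes called lower, and dotted lines mark log2 fold changes of 1 and -1. More genes lie below the lower line than above the upper one.

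Lower calls outnumbered higher calls among protein-coding genes and not among other classes. The size of the excess over all genes depended on scaling, with 2923 higher and 3057 lower calls after scaling by median ratios. Of the 13113 protein-coding genes tested, 15.6% were called higher and 24.9% lower. Of the 920 antisense genes, 15.5% were called higher and 9.78% lower, and of the 1006 pseudogenes 13.1% and 8.15%. Whether reads were assigned by strand is not given in the sources used here, so reads of an antisense gene and of its partner on the other strand cannot be told apart. The share of calls also moved with the level of the gene. Among genes with a mean under 0.3 FPKM, 8.5% were called higher and 8.82% lower, and among those from 30 to 100 FPKM 22.3% and 34.1%. Above 100 FPKM, where 380 genes were tested, 22.4% were called higher and 24.2% lower. The genes called higher took 13.4% to 13.6% of the summed FPKM in the control libraries and 20.8% to 21.3% in the 20 mM libraries. Those called lower took 23.7% to 24.4% in the control and 15.9% to 16.3% at 20 mM. The calls came from these same libraries, so the direction of both shifts was set by that choice of genes.

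Of the 15 protein-coding genes with the largest rise, 7 were chaperones and folding factors of the ER. HSPA5 encodes BiP, the main Hsp70 chaperone of the ER and the sentinel of the UPR. It was at 249, 236 and 251 FPKM in the control libraries and at 1297, 1280 and 1268 FPKM at 20 mM 2-DG. The groups lay far apart, with a log2 fold change of 2.38 (SE 0.07, adjusted p = 1.43e-07 in limma's test). HYOU1, a large Hsp70-like partner of BiP, was at 72.1, 74.5 and 67.3 FPKM in the control and at 370, 356 and 361 FPKM at 20 mM (log2 fold change 2.33). PDIA4, which forms disulphide bonds, was at 178, 167 and 168 FPKM in the control and 773, 757 and 765 FPKM at 20 mM (2.15). DNAJB9, a J-domain partner of BiP, rose from 10.9 ± 1.28 FPKM (SD, n = 3) to 43.1 FPKM, CRELD2 from 5.07 ± 0.891 to 21.4, MANF, a secreted ER protein, from 79.6 ± 7.83 to 288, and HSP90B1, the Hsp90 of the ER, from 90.4 ± 12.1 to 323 FPKM. For each of these 7 genes all treated libraries lay above all control libraries, as the rule for named genes required.

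Beside the chaperones, the 15 protein-coding genes with the largest rise held genes of other kinds. IFITM10, a member of the interferon-induced transmembrane family, was at 0.417, 0.621 and 0.353 FPKM in the control and at 13.3, 12.9 and 11 FPKM at 20 mM 2-DG, on 58 to 109 reads a library in the control and 1739 to 2462 at 20 mM. Its log2 fold change of 3.20 (SE 0.13) was the largest of any protein-coding gene that passed the rule for named genes. MMP1, the interstitial collagenase, was at 10.1, 9.5 and 11.3 FPKM in the control and at 53, 51.2 and 56.5 FPKM at 20 mM (2.27). SLC3A2 (2.06), ADM2 (1.92) and TRIB3 (1.92) belong to the ATF4 response described further on. HKDC1 (1.87) encodes a hexokinase-like enzyme and TNC (1.86) the matrix protein tenascin C. The control and treated libraries did not overlap for any of these genes, as the rule for named genes required.

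**Figure D2:**
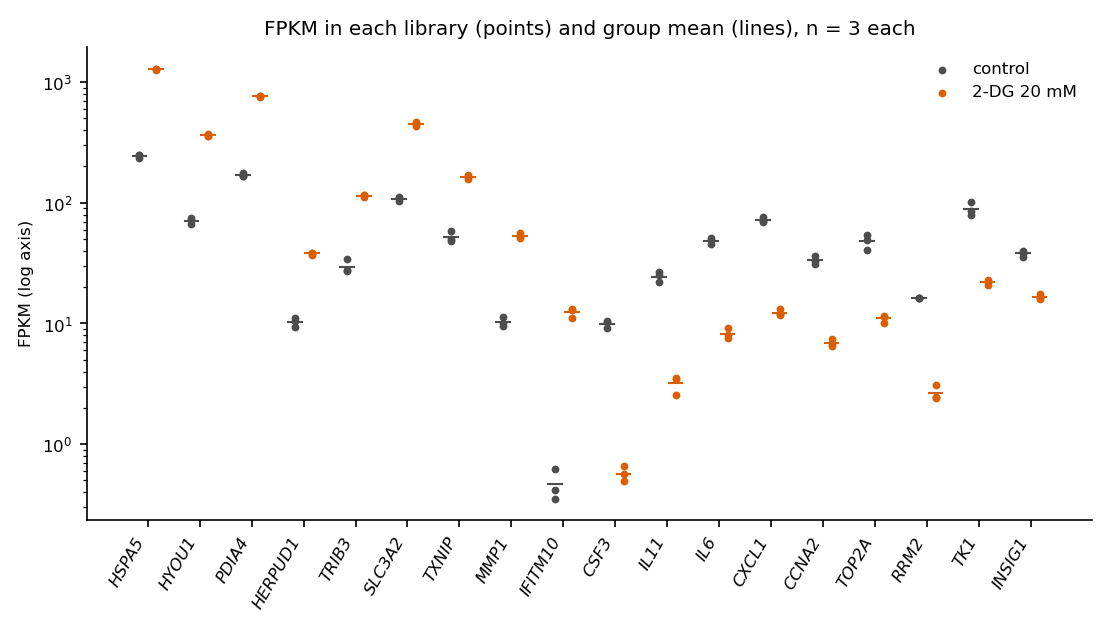
FPKM (log axis) of 18 genes in the 3 control libraries (grey) and the 3 libraries at 20 mM 2-DG (orange), with a line at each group's mean. In the first 9 genes all treated points lie above all control points, and in the last 9 below them, by more than the spread within either group. Most of the 18 genes were named by a rule that required no overlap between control and treated libraries.

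Of the 32 ER chaperones and folding enzymes listed for this comparison, 25 were called higher, 1 lower and 6 were not called, with a median log2 fold change of 1.01 against -0.02 over all genes. The 32 genes together took 0.588% to 0.606% of the summed FPKM in the control libraries and 1.9% to 1.92% at 20 mM 2-DG. CALR (calreticulin), the most abundant, was at 619, 560 and 550 FPKM in the control and at 1773, 1740 and 1713 FPKM at 20 mM. Its membrane-bound relative CANX (calnexin) rose from 91.8 to 201 FPKM. The exceptions had plain values. ERO1A, the main oxidase of the ER, was at 19.5 FPKM in the control and 17.9 at 20 mM, while its relative ERO1B rose from 0.335 to 1.35. SDF2 was at 21.6 and 20.2 FPKM, while its relative SDF2L1 rose from 35.7 to 122. FKBP7, a prolyl isomerase, was the member called lower, at 1.06 and 0.311 FPKM.

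A short piece of promoter is shown for 6 UPR genes because the ER stress response element (ERSE), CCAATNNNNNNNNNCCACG, read on both strands, lies there. Sequences are RefSeq promoters on GRCh38.p14, written 5′ to 3′ on the strand of the gene, with the element in capitals, and each ends before the start of transcription in RefSeq. HSP90B1 holds the element in 2 places.
HSPA5, chr9:125241371-125241429, minus strand: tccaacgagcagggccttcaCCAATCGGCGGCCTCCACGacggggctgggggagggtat
HSP90B1, chr12:103930196-103930359, plus strand: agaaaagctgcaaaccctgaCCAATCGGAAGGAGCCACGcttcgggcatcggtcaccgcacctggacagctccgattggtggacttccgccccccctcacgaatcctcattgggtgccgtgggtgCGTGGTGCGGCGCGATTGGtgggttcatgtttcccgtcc
CRELD2, chr22:49918534-49918592, plus strand: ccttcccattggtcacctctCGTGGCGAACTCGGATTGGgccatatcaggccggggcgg
CALR, chr19:12938364-12938422, plus strand: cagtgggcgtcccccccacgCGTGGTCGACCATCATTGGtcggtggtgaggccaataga
CANX, chr5:179698758-179698816, plus strand: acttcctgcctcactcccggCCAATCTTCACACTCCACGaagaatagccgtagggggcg
XBP1, chr22:28800583-28800641, minus strand: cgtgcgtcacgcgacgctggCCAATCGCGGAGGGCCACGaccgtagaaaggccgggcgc

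The exact ERSE was rare and its holders nearly all rose. Promoters, taken as the 250 bases before to the 50 after a gene's start, were found for 11335 of the 14977 named genes tested, and 14 of them (0.124%) held the element. It was in 6 of 29 promoters of the chaperone list (20.7%), those of HSPA5, HSP90B1, CRELD2, CALR, CANX and ERO1B. Of the 14 genes, 12 were called higher and 0 lower, with a median log2 fold change of 0.87, against 15.3% called higher of the genes without it. These 14 genes held 13 separate places in the genome, since CRELD2 and ALG12, as well as SERP1 and EIF2A, face away from each other across 1 shared element. The other holders were FICD, which modifies BiP (1.10), SERP1 (0.90), XBP1 (0.84), TRIM5 (0.62), EIF2A (0.55), ALG12 (0.37), TMEM120A (0.11, not called) and ZNF17 (-0.15, not called). HYOU1, PDIA4 and DNAJB9, which rose as strongly, do not have these exact letters in this window.

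The machinery around the folding enzymes rose less and less evenly. Of the 25 genes of ER-associated degradation, which sends misfolded proteins to the proteasome, 14 were called higher and 1 lower (median log2 fold change 0.33). HERPUD1, a membrane protein of the degradation complex, was at 11, 10.4 and 9.34 FPKM in the control and at 38.5, 38.6 and 37 FPKM at 20 mM 2-DG, and SEL1L, the adaptor of the ligase SYVN1, rose from 8.03 ± 1.55 to 26.9 ± 2.92 FPKM (SD, n = 3 each). VCP, the ATPase that extracts the substrates, was at 69.3 and 68.6 FPKM. Of 48 genes of translocation and early vesicle transport, 26 were called higher and 2 lower (median 0.29), led by SEC11C, a subunit of the signal peptidase, from 6.89 to 22.7 FPKM, and TRAM1 from 28.9 to 62.3.

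The genes of N-glycan assembly moved in both directions. Of 39 genes, 17 were called higher and 6 lower (median log2 fold change 0.12, or 0.24 with limma-voom on recovered reads). Subunits of the oligosaccharyltransferase were among the higher ones, with RPN1 at 86.5, 83.8 and 77.7 FPKM in the control and 157, 158 and 153 FPKM at 20 mM 2-DG, OSTC rising from 39.6 to 74.3 and STT3A from 45.2 to 70.1. So were GMPPA (10.5 to 21.4 FPKM), which regulates the supply of GDP-mannose, and the mannosyltransferase ALG2 (17.1 to 28.1). The 6 lower genes included the glucosyltransferases ALG6 (2.2 to 1.15 FPKM) and ALG8 (7.5 to 5.72), and DPM1 (3.41 to 2.21), the catalytic subunit of dolichol-phosphate-mannose synthase. MPI and PMM2, which make mannose phosphates, had 4.65 and 4.52 FPKM and 2.49 and 2.45 FPKM in control and treated cells.

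The sensors themselves changed modestly. Of 13 sensors and factors of the UPR, 5 were called higher and 4 lower, and none was a DEG. XBP1, the factor spliced by IRE1, was at 28.1, 28 and 31.2 FPKM in the control and at 52.8, 53.8 and 52.3 FPKM at 20 mM (log2 fold change 0.84). ERN1 rose from 1.29 to 2.47 FPKM, EIF2AK3 from 0.639 to 0.97 and ATF6 from 4.48 to 5.49. MBTPS1 (12.1 to 9.67 FPKM) and MBTPS2 (1.93 to 1.07), the proteases that release ATF6 and the sterol factors from the membrane, fell, as did CREB3L1 (27.5 to 19.3). The calls of EIF2AK3 and ATF6 were lost in 7 and 6 of 13 alternative analyses. FPKM per gene does not show splicing of XBP1 or cleavage of ATF6.

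The ATF4 arm rose in most of its members. Of 19 regulators of the ATF4-CHOP response, 14 were called higher and 2 lower, with a median log2 fold change of 0.64. TRIB3, a pseudokinase induced by CHOP, was at 34.1, 27.8 and 27.1 FPKM in the control and at 115, 117 and 111 FPKM at 20 mM 2-DG. DDIT3 was at 29.7, 23.8 and 28.2 FPKM and at 78.5, 78.5 and 74.4 FPKM (log2 fold change 1.47, SE 0.12), and CHAC1, which degrades glutathione, rose from 16.4 ± 2.67 to 46.9 ± 1.1 FPKM (SD, n = 3 each). ATF4 itself rose from 145 to 228 FPKM (0.65). The kinases that share the eIF2 alpha substrate with PERK did not follow. EIF2AK4 (GCN2) fell from 7.53 to 5.3 FPKM and EIF2AK1 from 27.8 to 23.8, and EIF2AK2 was at 4.18 and 3.74 FPKM.

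Genes that supply amino acids and charge tRNAs rose with it. Of 18 amino acid transporters tested, 10 were called higher and 2 lower (median log2 fold change 0.55), and the group's share of the summed FPKM went from 0.122% to 0.139% in the control to 0.312% to 0.318% at 20 mM. SLC3A2, the heavy chain of several exchangers, was at 111, 109 and 103 FPKM in the control and at 470, 449 and 434 FPKM at 20 mM. Its light chain for cystine, SLC7A11, rose from 4.69 ± 0.66 to 16.7 ± 0.417 FPKM (SD, n = 3 each) and the glutamine carrier SLC1A5 from 80.6 to 206. Of 17 genes of serine, glycine, asparagine and proline synthesis, 10 were called higher and 3 lower. PSAT1, which makes phosphoserine, was at 40.9, 37.5 and 40 FPKM and at 109, 117 and 118 FPKM, SHMT2 rose from 78.3 to 187 FPKM and PHGDH from 2.01 to 5.55. In this list the mitochondrial one-carbon enzymes MTHFD2 (0.70) and MTHFD1L (0.64) rose while the cytosolic MTHFD1 (-0.74) and SHMT1 (-0.30) fell.

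Of 20 cytosolic aminoacyl-tRNA synthetases, 11 were called higher and 2 lower (median log2 fold change 0.31). WARS1 (tryptophan) rose from 41.9 ± 0.97 to 102 ± 1.45 FPKM, SARS1 (serine) from 72.6 to 161 and GARS1 (glycine) from 19.3 to 41.8. FARSB (phenylalanine) fell from 7.43 to 4.59 FPKM and QARS1 (glutamine) from 63.9 to 56, and VARS1, RARS1 and HARS1 were among the 7 not called. The C/EBP-ATF response element (CARE), searched as TTGCATCA on both strands, was in 6 of 16 promoters of this list (37.5%) and in 0.494% of all tested promoters. The 6 were AARS1, CARS1, TARS1, NARS1, MARS1 and IARS1, each called higher. Of the 56 genes with the element, 20 were called higher (35.7%) and 11 lower (19.6%). The element is shown in capitals for 3 of its holders, each of which rose.
CHAC1, chr15:40953242-40953289, plus strand: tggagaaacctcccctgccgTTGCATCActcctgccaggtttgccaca
HERPUD1, chr16:56931946-56931993, plus strand: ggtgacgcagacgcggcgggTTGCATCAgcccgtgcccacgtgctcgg
AARS1, chr16:70289666-70289713, minus strand: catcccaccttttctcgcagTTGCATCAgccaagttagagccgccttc

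Of 9 secreted stress hormones tested, 5 were called higher and 1 lower. ADM2, a peptide of the adrenomedullin family, was at 2.51, 2.2 and 1.78 FPKM in the control and at 10.2, 12 and 10.7 FPKM at 20 mM 2-DG. GDF15 rose from 59.2 to 97.7 FPKM and VEGFA from 29.4 to 36.9. STC1 (stanniocalcin) fell from 22 to 10.3 FPKM, while its relative STC2 rose from 0.184 to 0.381. FGF21 was below the filter.

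Glucose handling changed in a divided manner. TXNIP and ARRDC4, arrestin-like proteins that limit glucose uptake and respond to phosphorylated sugar, both rose. TXNIP was at 47.9, 50.4 and 58 FPKM in the control and at 165, 159 and 171 FPKM at 20 mM 2-DG, with a log2 fold change of 1.65 (SE 0.07, adjusted p = 5.1e-07 in limma's test). ARRDC4 was at 0.215, 0.275 and 0.423 FPKM and at 3.09, 2.77 and 3.12 FPKM. Of 16 glucose carriers, hexokinases and their regulators tested, 6 were called higher and 4 lower. Among the carriers, SLC2A3 (GLUT3) rose from 11.2 to 20.8 FPKM and SLC2A1 (GLUT1) fell from 94.6 ± 7.95 to 73.4 ± 2.1 FPKM (SD, n = 3 each). Among the hexokinases, HKDC1 was at 5.32, 5.76 and 4.06 FPKM and at 22.8, 20.9 and 19.3 FPKM, HK1 rose from 79 to 91 FPKM and HK2 fell from 22.6 to 13.7.

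Of 18 glycolysis enzymes tested, 11 were called lower, 1 higher and 6 were not called, with a median log2 fold change of -0.29 against -0.02 over all genes. Their summed level was between 3990 and 4424 FPKM in the control libraries and between 3197 and 3306 FPKM at 20 mM. GAPDH was at 1851, 1748 and 1660 FPKM and at 1377, 1392 and 1328 FPKM, ENO1 at 887, 807 and 803 and at 657, 652 and 639, and TPI1 fell from 517 to 371. The call of GAPDH (adjusted p = 0.027 in limma's test) was lost in 8 of the 13 alternative analyses. ALDOC (5.49 to 2.04 FPKM) was the DEG of the list, and PFKFB3 (17.1 to 21.1), which makes an activator of phosphofructokinase, was the gene called higher. Of 9 lactate genes tested, 4 fell and 1 rose. LDHA was at 382, 364 and 386 FPKM in the control and at 275, 274 and 268 FPKM at 20 mM, the exporter SLC16A3 (MCT4) fell from 75.9 to 55.4 FPKM, and SLC16A1 (MCT1) rose from 0.0866 to 0.439 FPKM, a low level.

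Of 12 genes of the hexosamine pathway, which makes UDP-N-acetylglucosamine for glycans, 9 were called higher and 0 lower (median log2 fold change 0.44), against 15.4% called higher of all genes. GFPT1, its rate-limiting enzyme, was at 7.44, 9.12 and 9.27 FPKM in the control and at 23.6, 22.5 and 23.7 FPKM at 20 mM, while GFPT2 was at 37.1 and 41.4 FPKM. OGT rose from 10.9 to 17.9 FPKM and OGA, which removes the sugar that OGT adds, from 15.7 to 24.7. In the pentose phosphate pathway, whose median log2 fold change was -0.26, 4 of 11 genes were called higher (TALDO1, PGLS, PGD and TKT, by 0.17 to 0.34 on the log2 scale) and 6 lower, with PRPS2, which makes phosphoribosyl pyrophosphate, falling from 17.1 to 8.95 FPKM.

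Of 50 nuclear genes of the respiratory chain, 15 were called lower and 1 higher, so that 34 were not called. NDUFB3 fell from 21.9 to 13.6 FPKM, UQCRQ from 28.9 to 19.3 and ATP5F1C from 86.4 to 63. The 13 protein-coding genes of the mitochondrial genome took 24.1% to 25.3% of the summed FPKM in the control and 24.3% to 24.8% at 20 mM, and 1 of them, MT-ND5, was called lower, at 1783, 1913 and 2091 FPKM and at 1485, 1455 and 1494 FPKM, a call lost in 8 of 13 alternative analyses.

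Lipid synthesis fell. Of 27 genes of sterol synthesis and uptake, 19 were called lower and 1 higher, with a median log2 fold change of -0.58 against -0.02 over all genes. INSIG1, a retention factor that is itself a sterol target, was at 38.2, 35.9 and 40.1 FPKM in the control and at 16.2, 16.1 and 17.6 FPKM at 20 mM 2-DG, and ACAT2 fell from 26.5 to 8.86. SQLE, CYP51A1 and NSDHL were not called, and SC5D was the member called higher (4.13 to 5.24 FPKM). Of 16 genes of fatty acid synthesis, 12 were called lower and 2 higher. FASN fell from 109 ± 11 to 72.2 ± 3.82 FPKM (SD, n = 3 each), ACLY from 91.3 to 62.5, SCD from 169 to 134 and SCD5 from 3.94 to 1.85, whereas ME1, which makes NADPH, rose from 9.81 to 13.3. The sterol regulatory element, searched as TCACCCCAC, was in 1 of 20 promoters of the sterol list (5%) and in 0.406% of tested promoters.

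Genes of mitosis fell almost without exception. Of 50 listed genes, 49 were called lower, 0 higher, and 43 were DEGs, with a median log2 fold change of -1.57. Their share of the summed FPKM went from 0.494% to 0.523% in the control libraries to 0.15% to 0.16% at 20 mM 2-DG. CDK1, the mitotic kinase, was at 19.4, 19 and 25 FPKM in the control and at 3.52, 4.75 and 4.02 FPKM at 20 mM (log2 fold change -2.12, SE 0.13, adjusted p = 2.08e-06 in limma's test). Its partner CCNA2 (cyclin A2) was at 31.3, 32.7 and 36.2 FPKM and at 6.71, 6.53 and 7.45 FPKM, and CCNB1 (cyclin B1) fell from 118 ± 6.56 to 38.9 ± 1.53 FPKM (SD, n = 3 each). TOP2A, which untangles chromosomes, was at 40.8, 49.1 and 54 FPKM and at 10.1, 11.6 and 11.3 FPKM. The proliferation marker MKI67 fell from 38.8 to 13 FPKM. NUSAP1, the gene not called, was at 0.136 FPKM in the control, and BUB3 (31.5 to 24.9 FPKM) fell least among the genes above 1 FPKM. In bulk samples, fewer cells in a phase of the cell cycle and less RNA per cell cannot be told apart.

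DNA replication fell as widely but less deeply. Of 41 genes, 39 were called lower and 0 higher, 15 were DEGs, and the median log2 fold change was -0.84. PCNA, the sliding clamp, was at 155, 145 and 151 FPKM in the control and at 65.1, 66.4 and 70.1 FPKM at 20 mM. Of the helicase subunits, MCM3 fell from 93.6 ± 4.47 to 43.2 ± 2.58 FPKM, MCM7 from 104 ± 6.79 to 48 ± 2 and MCM4 from 18.1 to 10.8. POLE2 (6.63 to 1.83 FPKM) and MCM10 (6.64 to 1.94) fell most, and RPA2 and GINS3 were not called. In nucleotide synthesis, RRM2, the regulated subunit of ribonucleotide reductase, was at 16.2, 16.2 and 16.4 FPKM and at 2.47, 3.07 and 2.41 FPKM, TK1 at 101, 85.1 and 79.6 and at 22, 22.9 and 20.7, and TYMS fell from 15.3 to 3.7 FPKM, while CAD, the first enzyme of pyrimidine synthesis, was at 20.4 and 19.7 FPKM (not called). In all, 16 of 26 nucleotide genes were called lower and 0 higher. Of 28 genes of recombination repair, 21 fell and 0 rose, with EXO1 falling from 6.35 to 1.48 FPKM, and NBN and RAD50 not called.

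The regulators of G1 did not move as a block. Of 25 tested, 16 were called lower and 4 higher. E2F1 fell from 38.9 to 15.9 FPKM, E2F8 from 4.14 to 0.627 and CDC25A from 8.2 to 2.85. Among the inhibitors of CDKs, CDKN2C (p18) was at 17, 16.8 and 16.4 FPKM in the control and at 3.03, 3.3 and 2.92 FPKM at 20 mM, CDKN2D fell from 43.3 to 18.9, and CDKN1A (p21) was at 48.2, 43.7 and 42.5 FPKM and at 79.6, 71.4 and 68.3 FPKM, a rise of 0.69 on the log2 scale. The repressor E2F7 rose from 13.5 to 25.2 FPKM, CCND2 from 0.516 to 1.55 and CDK6 from 3.45 to 4.81, whereas CCND1 fell from 77.4 to 49.2 and CCND3 from 40 to 22.3.

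Promoter letters differed between the mitotic and the replication genes. The cell cycle genes homology region (CHR), TTTGAA, was in 30 of 42 promoters of the mitosis list (71.4%) and in 9.79% of tested promoters, and the E2F site, TTTCCCGC, in 9 of 35 promoters of the replication list (25.7%) and in 2.55%. In the other list each motif was in 1 promoter. CHR is short, so that most promoters that hold it belong to other genes. Of the 1110 genes with it 30.9% were called lower, against 23.5% of those without, and 75 of 242 lower DEGs with a promoter (31%) held it. Both motifs were searched on both strands. They are shown in capitals for 4 mitotic genes and 3 replication genes that fell.
CCNB2, chr15:59105097-59105142, plus strand: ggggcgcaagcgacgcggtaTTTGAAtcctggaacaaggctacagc
PLK1, chr16:23678840-23678885, plus strand: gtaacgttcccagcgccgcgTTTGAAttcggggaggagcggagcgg
CDC20, chr1:43358783-43358941, plus strand: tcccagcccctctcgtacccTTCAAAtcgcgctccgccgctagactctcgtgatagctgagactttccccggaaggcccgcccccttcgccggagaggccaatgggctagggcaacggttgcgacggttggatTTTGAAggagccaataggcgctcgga
NCAPG, chr4:17810924-17810969, plus strand: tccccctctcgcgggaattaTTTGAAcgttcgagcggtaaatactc
MCM3, chr6:52284889-52284936, minus strand: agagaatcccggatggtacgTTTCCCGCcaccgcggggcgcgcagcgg
MCM7, chr7:100101557-100101604, minus strand: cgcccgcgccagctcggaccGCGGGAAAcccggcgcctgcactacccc
PCNA, chr20:5126654-5126701, minus strand: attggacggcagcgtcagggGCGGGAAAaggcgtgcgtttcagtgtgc

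**Figure D3:**
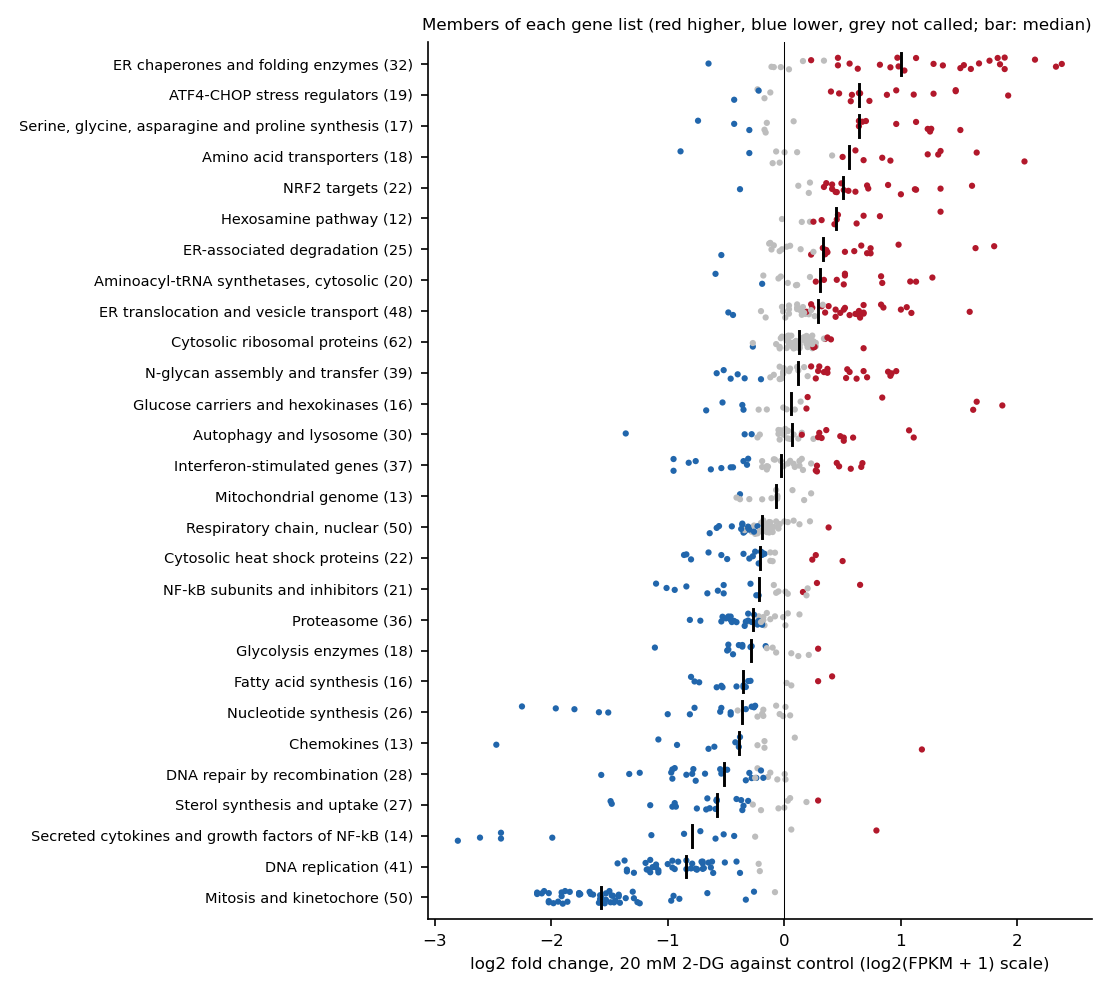
Each point is a tested member of a gene list (their number in brackets), placed by its log2 fold change at 20 mM 2-DG against the control, in red where called higher, blue where called lower and grey where not called. Black bars mark the list's median, from 1.01 for the ER chaperones at the top to -1.57 for mitosis at the bottom.

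Secreted cytokines held the genes with the largest falls of all. CSF3 (G-CSF) was at 10.2, 9.12 and 10.4 FPKM in the control and at 0.494, 0.566 and 0.654 FPKM at 20 mM 2-DG, with a log2 fold change of -2.80 (SE 0.10, adjusted p = 1.65e-07 in limma's test) and a log2 ratio of mean FPKM of -4.12. IL11 was at 26.6, 25 and 21.9 FPKM and at 3.54, 3.5 and 2.56 FPKM, and IL6 at 48.8, 45.6 and 51.2 FPKM and at 9.11, 7.96 and 7.6 FPKM. CSF2 (GM-CSF), the most abundant of the list, was at 400, 339 and 377 FPKM and at 71.7, 63.1 and 70.3 FPKM. IL1B fell from 31.7 ± 3.86 to 7.22 ± 1.26 FPKM (SD, n = 3 each). Of 14 cytokines and growth factors tested, 11 were called lower and 1 higher, with a median log2 fold change of -0.79, or -1.83 with limma-voom on recovered reads. Other abundant members moved less. CSF1 fell from 224 to 148 FPKM, and LIF, a relative of IL6 and IL11, was at 41.5, 41.2 and 40 FPKM and at 43.5, 42.8 and 41.8 FPKM (not called). TNFSF15 was the member called higher, from 1.18 to 2.77 FPKM.

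The CXC chemokines CXCL1, CXCL2 and CXCL3, which lie near each other on chromosome 4, went in different directions. CXCL1 was at 70.8, 69.7 and 76.5 FPKM in the control and at 11.9, 11.7 and 13.1 FPKM at 20 mM 2-DG. CXCL2 was at 60.2, 47.5 and 61.3 FPKM and at 38.5, 37.1 and 34.4 FPKM. CXCL3 was at 9.06, 7.12 and 8.01 FPKM in the control and at 23.1, 19.2 and 16.6 FPKM at 20 mM, with no overlap and a log2 fold change of 1.18 (SE 0.11, adjusted p = 4.3e-05 in limma's test) against -2.47 for CXCL1 and -0.60 for CXCL2. These genes are close copies of each other, so how reads that fit several of them were counted could bear on these values, and that was not tested. CXCL8 fell from 80.8 to 37.6 FPKM and CCL20 from 1.12 to 0.108. In all, 8 of 13 chemokines tested were called lower and 1 higher.

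An NF-kB site, searched as GGGNNTTTCC on both strands, was in 4 of 9 chemokine promoters (44.4%), those of CXCL1, CXCL2, CXCL3 and CCL20, in 3 of 11 cytokine promoters (27.3%), those of IL6, IL32 and LTB, and in 2.16% of tested promoters. The site is shown in capitals for IL6 and for the 3 chemokines, whose stretches are nearly alike although CXCL3 rose and the others fell.
IL6, chr7:22727107-22727156, plus strand: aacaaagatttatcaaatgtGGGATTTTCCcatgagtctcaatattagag
CXCL1, chr4:73869294-73869343, plus strand: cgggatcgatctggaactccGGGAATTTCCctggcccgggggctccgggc
CXCL2, chr4:74099244-74099293, minus strand: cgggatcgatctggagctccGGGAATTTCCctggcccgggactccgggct
CXCL3, chr4:74038739-74038788, minus strand: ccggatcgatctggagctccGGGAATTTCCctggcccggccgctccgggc
Of the 245 genes with the site, 17.1% were called higher and 27.8% lower, against 15.4% and 24.1% of those without it.

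**Figure D4:**
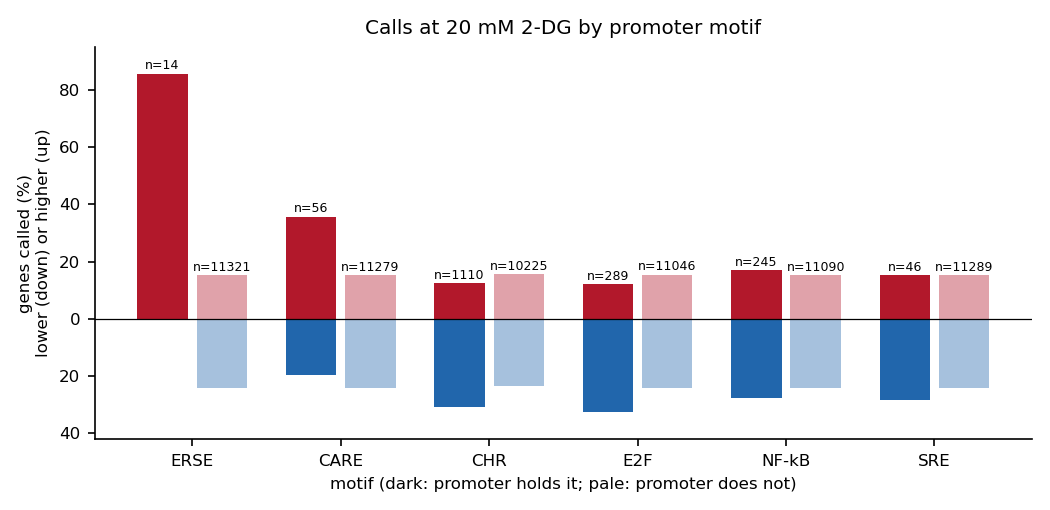
Percent of genes called higher (red, upwards) or lower (blue, downwards) at 20 mM 2-DG, for genes whose promoter holds a motif (dark bars) and for those whose promoter does not (pale bars), with the number of genes above each bar. For ERSE 85.7% of 14 genes were called higher and 0 lower, for CARE 35.7% of 56 were called higher, and for the other motifs the bars with and without differ by less.

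The NF-kB subunits RELA, NFKB1, RELB and REL changed little beside their targets. RELA rose from 28.5 to 32 FPKM, a call lost in 7 of 13 alternative analyses, and NFKB1 (11.2 and 10.5 FPKM), RELB (20 and 22.9) and REL (0.0739 and 0.0842) were not called. Of 21 subunits, inhibitors and feedback genes, 11 were called lower and 3 higher. The subunit NFKB2 was among those called, a call lost in 4 of 13 alternative analyses. NFKBIA, the inhibitor that is itself a target, was at 92.7, 86.2 and 95.4 FPKM in the control and at 61.5, 63 and 65.5 FPKM at 20 mM, BCL3 fell from 30.4 to 13.6, BIRC3 from 9.92 to 4.64 and ICAM1 from 87.3 to 54.9, while TNFAIP3, another target, was at 5.61 and 5.28 FPKM (not called). IKBKG rose from 1.87 to 3.49 FPKM.

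Of 37 interferon-stimulated genes, 8 were called higher and 11 lower, with a median log2 fold change of -0.03, beside 15.4% and 21.6% of all genes. Those called higher included the RNA sensor IFIH1 (4.55 to 7.79 FPKM), the nuclease ISG20 (4.31 to 7.43), RSAD2 (0.208 to 0.796) and IFI44 (20.1 to 28.3). Those called lower included BST2 (211 to 108 FPKM), IFITM1 (14.1 to 6.81), IFITM2 (43.5 to 24.1) and GBP2 (9.99 to 5.46). Among 17 antigen presentation genes, the immunoproteasome subunits PSMB9 (11.3 to 5.5 FPKM) and PSMB8 (22.8 to 14.7) fell with TAP2 and CD274 (PD-L1, 4.91 to 3.81), HLA-E rose from 139 to 169, and HLA-B and HLA-C were not called.

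Targets of NRF2, the factor for oxidative stress, rose. Of 22, 18 were called higher and 1 lower, with a median log2 fold change of 0.50. AKR1C1 was at 2.8, 2.57 and 2.78 FPKM in the control and at 13, 10.4 and 8.22 FPKM at 20 mM 2-DG, and HMOX1, which degrades haem, was at 16.3, 14.5 and 15.1 FPKM and at 40.4, 32.4 and 31.3 FPKM. The ferritin chains rose in parallel, FTH1 from 761 ± 45.3 to 1247 ± 93.4 FPKM (SD, n = 3 each) and FTL from 3568, 3190 and 3523 FPKM to 6073, 5555 and 5276 FPKM, the largest rise in FPKM of any gene. TXN, PRDX1 and AKR1B1 were not called. The AKR1C genes are close copies of each other, and how shared reads were counted is not given in the sources used here.

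Cytosolic protein quality control went the other way from that of the ER. Of 22 cytosolic heat shock genes, 15 were called lower and 3 higher. HSPB1 was at 329, 268 and 277 FPKM in the control and at 172, 161 and 153 FPKM at 20 mM, HSP90AA1 fell from 323 to 221 FPKM and HSPA8 from 565 to 491. HSPA1A (19 to 9.98 FPKM) and its near-identical copy HSPA1B (40.5 to 22.9) fell alike. Of 36 proteasome genes, 22 were called lower and 0 higher, with PSMC3 falling from 157 ± 15 to 89.2 ± 4.01 FPKM and PSMB1 from 119 to 81.6, though the median log2 fold change was only -0.27. Of 62 ribosomal proteins, 6 were called higher, with RPL12 at 414 and 663 FPKM, and 1, RPS10, lower (1.8 and 1.32 FPKM). A few genes of lists that every cell uses had very low values in all libraries, such as PSMA2 (0.0349 FPKM in the control), RPS10 and ASNS (0.354), and how overlapping genes were counted is not given in the sources used here. Of 33 genes of ribosome biogenesis, 4 were called higher and 6 lower, with DDX10 rising from 4.42 to 10.1 FPKM and NOP56 falling from 51.7 to 32.2. Neither ribosome list exceeded the shares over all tested genes, 15.4% called higher and 21.6% lower.

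Of 30 genes of autophagy and the lysosome, 11 were called higher and 3 lower. MAP1LC3B rose from 22.1 ± 1.96 to 47.4 ± 3.23 FPKM (SD, n = 3 each), and its paralog MAP1LC3A was at 8.97, 7.74 and 7.82 FPKM in the control and at 3, 2.03 and 2.76 FPKM at 20 mM. SQSTM1 (p62) rose from 180 to 272 FPKM and the protease CTSL from 40.9 to 89.6. Of 22 hypoxia-inducible genes, 7 were called higher, such as NDRG1 (28.3 to 39.4 FPKM), and 6 lower, such as CA12 (3.46 to 1.69) and HIF1A itself (85.8 to 62.5). Of 26 genes of death receptors and the BCL2 family tested, 4 were called higher, 4 lower and 18 were not called. Over all tested genes 15.4% were called higher and 21.6% lower. TNFRSF10A (17.7 to 25.1 FPKM) and CASP4 (9 to 15.5) rose, BID fell from 12.2 to 7.97, and TNFRSF10B, a known CHOP target, was at 44.1 and 42.6 FPKM (not called).

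At the cell surface and in the matrix, proteases moved apart. Of 20 genes of matrix metalloproteinases and plasminogen activation tested, 6 were called higher and 9 lower. MMP1 rose as given above, SERPINE2, an inhibitor of plasminogen activators, rose from 3.19 ± 0.171 to 9.65 ± 0.433 FPKM and TIMP1 from 308 to 490. PLAU (urokinase) was at 109, 98.9 and 97.3 FPKM in the control and at 45.7, 53.2 and 49.2 FPKM at 20 mM, PLAT fell from 67.8 to 36.7, and F3 (tissue factor) from 87 to 42.8. Of 32 integrins, laminins and collagens tested, 8 were called higher and 11 lower, with ITGA2 rising from 32.4 to 56.5 FPKM, LAMB3 from 144 to 214 and COL8A1 falling from 5.86 to 1.84. EGFR was at 11.4, 16.8 and 13.9 FPKM and at 24.5, 24.1 and 29.4 FPKM, and its relative ERBB2 fell from 8.81 to 5.76. Among 30 immediate early and ERK feedback genes tested, KLF4 (25.1 to 53.6 FPKM), DUSP1 (51.4 to 93.1) and EGR1 (27.7 to 41.6) rose, ANKRD1, a target of YAP, was at 194, 206 and 225 FPKM and at 63.5, 76.4 and 71.2 FPKM, and FOS was at 5.52 and 5.43 FPKM (not called).

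The remaining named genes were set by difference of level or by biotype. ACTB fell from 1974, 1817 and 1767 FPKM in the control to 967, 989 and 1004 FPKM at 20 mM 2-DG, and IGFBP4, which binds insulin-like growth factors, from 1155 ± 50.9 to 541 FPKM. MT-RNR2, the large mitochondrial rRNA, was at 3355, 3206 and 4146 FPKM and at 5170, 5166 and 5099 FPKM (adjusted p = 0.0303 in limma's test), a call lost in 7 of 13 alternative analyses. The lower protein-coding genes that are in no list above were PIMREG (log2 fold change -2.35), C15orf48 (-2.30), SAA2 (-2.29), MYBL2 (-2.29), FAM83D (-2.16), CDKN3 (-2.13) and CEP55 (-2.13).

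Several short noncoding genes among the named ones lay inside host genes. MIR616 (2.32, 0.563 and 2.1 FPKM in the control, 7.99, 6.74 and 5.92 FPKM at 20 mM) lies in DDIT3, which rose, and MIR106B (-1.60) and MIR25 (-1.34) lie in MCM7, which fell by 1.10 on the log2 scale. Reads of a host transcript cannot be told apart from those of a short gene inside it, and such a library does not measure mature miRNAs. SNORD14E (-1.41) lies in HSPA8 and the Y_RNA gene ENSG00000200502 (1.96) in ZCCHC7, whose own value was -0.03. These short genes rest on few reads. The Y_RNA gene had 5, 0 and 0 reads in the control libraries and 9, 14 and 24 at 20 mM. MIR616 had 8, 2 and 7 against 24, 26 and 19, MIR106B 14, 11 and 14 against 4, 1 and 2, and SNORD14E 28, 20 and 48 against 11, 6 and 11. LINC00622 was at 0.466, 0.382 and 0.353 FPKM in the control and at 4.38, 3.81 and 3.33 FPKM at 20 mM, and LINC01134 was at 0.561, 0.572 and 0.58 FPKM in the control and at 3.46, 3.36 and 3.28 FPKM at 20 mM. PDIA3P2 (1.53), HMGN2P3 (-1.48) and RNU6-2 (-1.33) complete this set.

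The largest rise of all belonged to a gene without a name in the files, ENSG00000286966, singled out here after its values were seen. It was at 5.57, 5.36 and 5.29 FPKM in the control and at 165, 119 and 102 FPKM at 20 mM 2-DG, on 155 to 169 reads a library in the control and 2880 to 4368 at 20 mM, with a log2 fold change of 4.31 (SE 0.17, adjusted p = 2.32e-07 in limma's test). At 10 mM 2-DG its libraries were at 106, 96.5 and 74.8 FPKM. The gene is not in GENCODE release 29, so no position or class is given for it here.

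Against the lower dose, the change from 10 mM to 20 mM 2-DG was small. No gene differed at an adjusted p under 0.05 in limma's test (0 of 16572, or 0%), and 1139 had an unadjusted p under 0.05. The smallest adjusted p was 0.11. HSPA5 was at 1034 ± 38.4 FPKM at 10 mM and 1282 ± 14.3 at 20 mM, TXNIP at 137 and 165, and PSAT1 at 113 and 114. CSF3 was at 1.53 ± 0.249 FPKM at 10 mM and 0.572 at 20 mM, CXCL1 at 21.6 ± 4.43 and 12.2, PLK1 at 10.1 and 7.07, and LDHA at 290 and 273. The log2 fold change from 10 to 20 mM was -0.69 for CSF3 (SE 0.10, unadjusted p = 4.62e-05, adjusted p = 0.11 in limma's test), -0.76 for CXCL1 (SE 0.12), 0.48 for MMP1 (SE 0.07) and -0.46 for PLK1 (SE 0.08). Of the 50 mitosis genes, 40 had an unadjusted p under 0.05 between the doses, with a median log2 fold change of -0.38 from 10 to 20 mM, and 0 passed the adjustment. NFKBIA was at 85.4 FPKM at 10 mM and 63.3 at 20 mM, with 91.4 in the control.

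**Figure D5:**
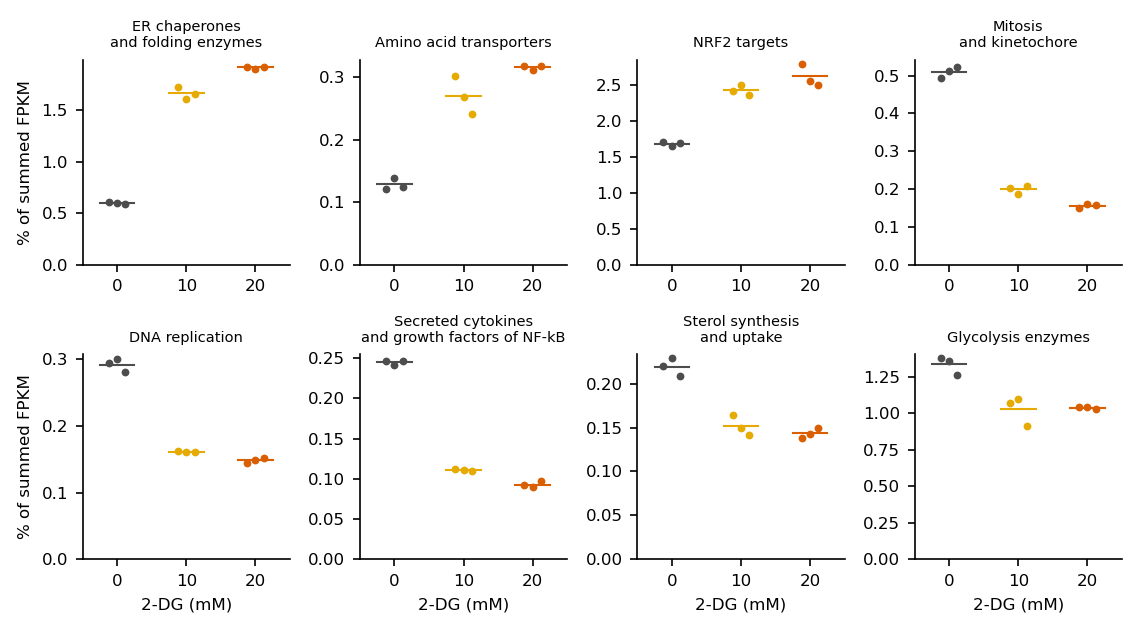
Percent of the summed FPKM of a library taken by 8 gene lists at 0, 10 and 20 mM 2-DG, with 1 point per library and a line at the mean of 3, on axes that start at 0. The control is shared by both doses, and the 20 mM points lie beyond the 10 mM points, seen from the control, for the ER chaperones (1.61% to 1.72% against 1.9% to 1.92%) and for mitosis (0.188% to 0.209% against 0.15% to 0.16%), and overlap with them for sterol synthesis and glycolysis.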

How the data were processed

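RNA was taken per the labels with a column kit, and libraries were made with a SMARTer mRNA-Seq kit. The authors deposited 1 table of FPKM values per library for 61552 genes, 20495 of them without a name. Per the labels the genome was GRCh38, and the aligner, counter and annotation are not given in the sources used here. For all 32806 genes above 0, a gene length was found that turns the 9 values into whole reads, with library totals of 30974968 to 40843638, of which the recovered reads make up 99.8% to 99.9%. Positions and biotypes came from GENCODE 29. The 9 libraries were fitted together with limma 3.58.1 in R 4.3.3 on log2(FPKM + 1), with a mean-variance trend and Benjamini-Hochberg adjustment over 16572 genes. A gene was kept if 3 or more libraries had 10 reads of it (scaled to the median depth) and the 9 together had 15. Fits were tested on simulated data. Intervals were not computed, and depth limits genes with few reads.

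Named genes were, in each direction, the 15 protein-coding genes with the largest fold change among called genes of at least 1 FPKM without overlap, the 5 of other biotypes, the 5 with the largest difference of FPKM, and the leading, opposing and central members of the gene lists. The members, lists and rule were chosen with earlier results of these data known. Replicate numbers did not pair the libraries (the deviations of equal numbers correlated at -0.105 to 0.133). Alternatives changed the pseudocount, filter, scaling, libraries and test. Promoters are from RefSeq (GRCh38.p14). Some genes that the rule names are not reported here.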

Additional observations from a re-analysis of the deposited data

How the results depend on the processing

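Under 13 alternatives the 2544 higher and 3582 lower genes became 1904 to 2159 and 2752 to 3208 when each library was left out in turn, and stayed within 1.5 times of these counts in all others. With the libraries scaled by median ratios 2923 genes were called higher and 3057 lower, so that 48.9% of calls were higher. The number of DEGs depended on the scale of low values. It was 621 higher and 866 lower with a pseudocount of 0.1, and 927 higher and 1193 lower with limma-voom on recovered reads, which use a smaller offset, and 157 to 178 higher and 307 to 343 lower with a library left out. Between 20 mM and 10 mM 2-DG, 3 genes passed the adjustment when all 32806 genes above 0 were tested, and the cause was not tested. A fit with the replicate number as a block (replicate block) called 2276 genes higher and 3270 lower, and 160 and 324 DEGs. Among 1065 named and listed genes, no gene called higher or lower had its direction reversed. Genes not called were not checked for a change of sign. Of 603 values of 47 named genes 24 lost their call, those of GAPDH, MT-RNR2, MT-ND5 and, in 1 alternative, MIR25. Counting list members too, 131 genes lost their call in at least 1 alternative and 46 in 7 or more, among them RPS10 (10), HSPA8 (9), CD274 (8), and STC2, RELA, PFKFB3, EIF2AK3 and EIF2AK1 (7 each), and TKT, SHMT1, PGLS, CDK6, ATF6 and ALG12 lost it in 6. With limma-voom the median moved from -0.79 to -1.83 for cytokines, from -0.51 to -1.1 for recombination repair, from 0.22 to 0.72 for stress hormones and from 0.12 to 0.24 for N-glycan assembly, and the medians of the UPR sensors, hypoxia, death receptor, EGF and matrix protease lists, near 0, changed sign in at least 1 alternative. Depth limits statements on genes below 1 FPKM.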

Other observations

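Gene families that do not form a list above were looked at after their values were seen. Some members, such as KLF4, are also in a list above. The counts of these families stand beside the 15.4% of all tested genes called higher and the 21.6% called lower. Tubulins fell in 9 of 12 members and rose in 0, with TUBA1B at 171 FPKM in the control and 73.7 FPKM at 20 mM 2-DG, and reads of such near-identical copies may be shared. Of 32 hnRNP and SR proteins, which act in splicing, 22 were called lower and 1, HNRNPF, higher, and HNRNPA2B1 fell from 99.5 ± 5.29 to 49.3 ± 1.47 FPKM (SD, n = 3 each). Among 10 high mobility group proteins of chromatin, 7 were called lower and 0 higher, with HMGB2 falling from 72.6 to 20.6 FPKM, while HMGA1, the most abundant, was at 1639 and 1788 FPKM (not called). Of 24 nucleoporins 12 were called lower, led by NUP210 (12.6 to 4.61 FPKM).

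Histones were divided. H2AX, whose mRNA can be polyadenylated, fell from 119 to 41.2 FPKM, and H2BC5 rose from 18.1 to 37.8 FPKM, with 7 of 26 histone genes called higher and 11 lower. The libraries were made with an mRNA-Seq kit, and how histone mRNAs that are not polyadenylated entered them was not tested. Kruppel-like factors rose in 8 of 16 members and fell in 0, with KLF4 and KLF10 (13.4 to 25.3 FPKM) changing most. Zinc finger genes named ZNF had 80 of 444 called higher and 26 lower. Among secreted and inflammatory products, SAA1 (serum amyloid A, 175 to 47.1 FPKM) fell with its close copy SAA2, PTGES, which makes prostaglandin E, fell from 167 ± 3.27 to 49.3 ± 2.51 FPKM, and of 5 insulin-like growth factor binding proteins IGFBP3 rose (13.1 to 24.9 FPKM) while the other 4 fell.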
